A study of Homo sapiens with 60 samples.

Results

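The mitotic G2/M genes described here are 46 genes that human cells transcribe mainly in late S, G2 and M phase, taken from the series by their symbols in the deposited count table. All 46 were found among the 60675 genes of that table, and all 46 were among the 17680 genes that passed the filter on low counts. Their levels were read in SW1783 cells, a human astrocytoma line kept in Leibovitz's L-15 medium, after 24 h with an ethanol extract (70% ethanol) of a herb or a herbal formula, or with vehicle. The table holds 60 libraries, of which 58 are used. The extract groups were Coptidis Rhizoma at 0.56, 2.8 and 14 µg/mL (2 libraries a dose), Zizyphi Fructus at 20, 100 and 500 µg/mL (2 a dose), Citri Unshius Pericarpium and Cimicifugae Rhizoma at 20, 100 and 500 µg/mL (3 a dose each), Bupleuri Radix at 8.4, 42 and 210 µg/mL (3 a dose), Aconiti Lateralis Radix Preparata at 20, 100 and 500 µg/mL (3 a dose, of which 2 are used at 500 µg/mL), and the formulas Yijung-tang (2 a dose, of which 1 is used at 20 µg/mL) and Banhasasim-tang (1 a dose) at 20, 100 and 500 µg/mL. These doses are called low, medium and high. The high dose was 500 µg/mL or, where it lay below that, the concentration that costs 20% of viability (IC20), and the other doses were 1/5 and 1/25 of it. So Coptidis and Bupleuri, the extracts with an IC20 below the ceiling, were tested at lower mass doses than the rest. The vehicle group had 3 libraries, with 0.1% DMSO per the sample labels and 2% per the series text.

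Entry into mitosis is driven by the kinase CDK1 with its cyclins A and B, which the CDC25 phosphatases switch on. Aurora and polo-like kinases, the spindle, the kinetochores that tie chromosomes to it, and the spindle checkpoint then carry the chromosomes to anaphase, which the ubiquitin ligase APC/C triggers through CDC20. Transcription of these genes is coordinated: the DREAM and MuvB complexes bind a short element near the start site called the CHR, the factor NF-Y binds CCAAT boxes upstream of it, and B-MYB and FOXM1 join in G2, so the summed level of such genes is widely used as a gauge of how many cells of a culture are cycling. In bulk RNA, fewer cells in G2 and M and less of each RNA per cell cannot be told apart.

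Libraries held between 15996157 and 30990264 counts. Mitochondrially encoded genes took 4.66 to 4.94% of the counts in vehicle libraries, 13.4 to 13.5% at the medium Coptidis dose, 7.81 to 8.01% at the high Coptidis dose, and 8.88 to 13.1% over the Banhasasim doses. The labels do not say that replicates came from separate cultures, so the p-values measure the spread between these libraries. The names of extract libraries open with a set number, which was 11 with Zizyphi or Coptidis, 12 with Cimicifugae or Citri, 13 with Aconiti or Bupleuri and 14 with a formula. Vehicle libraries bear no such number, so set and treatment cannot be told apart in a comparison with vehicle. Doses of 1 extract share a set, and the comparison of high with low dose therefore leads below. A pair of libraries stood apart and is left out by the rule that defines the gene set. Levels are given as CPM, counts scaled to each library's normalized total, which compare libraries within a gene and not 1 gene with another. The first high Aconiti library had 5.96 CPM of HMMR, against 83.3 and 87.3 CPM in its fellows, and the first low Yijung library had 423 CPM of PTTG1, against 118 CPM in its fellow. With both in the fit, members called at high against low dose numbered 42 in Coptidis and 30 in Bupleuri. They numbered 0 in Zizyphi, 1 in Citri, 0 in Cimicifugae and 2 in Aconiti, and 0 at high against medium Yijung. So the calls of the smaller changes rest on leaving both libraries out. The share of all genes called in that fit is not given here, so a loss of calls over all genes cannot be told apart. Of 7 astrocyte markers, GFAP, S100B, AQP4, SLC1A2 and ALDH1L1 were under 1 CPM in each of the 58 libraries used. SLC1A3 and ALDOC, also on that list, had medians of 33.2 and 8.12 CPM. Of the 3 glioma and mesenchymal line markers, VIM and CD44 were abundant, with medians of 4379 and 2696 CPM, and NES had a median of 10.1 CPM.

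The promoters of the members are shown here because so many of the genes moved together. RefSeq promoter windows (GRCh38.p14, 250 bases before to 50 after the start) exist in the table used for 39 of the 46 members. The letters searched for were TTTGAA and TTTAAA, the common forms of the CHR, and CCAAT, on both strands (TTTAAA is its own reverse complement, TTTGAA reads TTCAAA and CCAAT reads ATTGG from the other strand). A TTTGAA or TTTAAA lay between 60 bases before and 20 after the start in 29 of the 39 members (74.4%), against 8.57% of all 27305 genes with a window. That range was set after the positions had been seen. Anywhere in the window the figures were 36 of 39 members (92.3%) and 27.9% of all genes. CCAAT was present in 33 members (84.6%) and in 39.7% of all genes, and both elements stood in 1 window, with the first one near the start, in 24 members (61.5%) and in 3.35% of all genes. CCAAT was not particular to the members among the lists read further below. It was present in 65.6% of 32 other G2/M genes and in 77.3% of 22 genes of G1/S and DNA replication. In 7 CDK inhibitors and G2 brakes its share was 85.7%, and in 16 APC/C genes 43.8%. A TTTGAA or TTTAAA near the start lay in 53.1%, 13.6%, 14.3% and 0% of these lists, in the same order. These are matches of letters and not measured binding.

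The 7 windows printed run from 5′ to 3′ on the gene's strand, with the matches in capitals. They were picked for genes on which the results turn: KIF20A (chr5:138178862-138179161, plus strand) and MKI67 (chr10:128126374-128126673, minus strand), which fell most or nearly so with Coptidis, the cyclins CCNB1 (chr5:69166900-69167199, plus strand) and CCNB2 (chr15:59104896-59105195, plus strand) and the kinase PLK1 (chr16:23678639-23678938, plus strand), which carry an element close to the start, and CDC20 (chr1:43358731-43359030, plus strand) and CDC25B (chr20:3786701-3787000, plus strand), which responded in another way to Coptidis.
KIF20A promoter: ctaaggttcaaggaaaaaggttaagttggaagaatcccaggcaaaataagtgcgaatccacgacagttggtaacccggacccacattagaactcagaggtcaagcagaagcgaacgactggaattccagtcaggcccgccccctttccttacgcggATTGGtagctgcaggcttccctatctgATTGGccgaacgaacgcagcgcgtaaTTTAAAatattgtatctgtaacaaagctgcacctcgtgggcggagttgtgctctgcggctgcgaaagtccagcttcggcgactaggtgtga
MKI67 promoter: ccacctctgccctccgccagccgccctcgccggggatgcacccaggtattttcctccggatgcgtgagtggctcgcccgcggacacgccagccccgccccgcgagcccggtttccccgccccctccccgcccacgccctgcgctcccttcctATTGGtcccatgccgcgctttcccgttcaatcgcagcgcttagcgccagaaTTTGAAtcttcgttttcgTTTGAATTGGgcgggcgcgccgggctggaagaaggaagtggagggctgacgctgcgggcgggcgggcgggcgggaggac
CCNB1 promoter: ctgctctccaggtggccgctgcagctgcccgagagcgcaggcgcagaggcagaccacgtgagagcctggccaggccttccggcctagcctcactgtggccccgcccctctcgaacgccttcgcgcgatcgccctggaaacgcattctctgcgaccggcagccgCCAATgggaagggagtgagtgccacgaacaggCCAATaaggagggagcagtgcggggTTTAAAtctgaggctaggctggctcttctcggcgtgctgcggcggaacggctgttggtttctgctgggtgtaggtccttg
CCNB2 promoter: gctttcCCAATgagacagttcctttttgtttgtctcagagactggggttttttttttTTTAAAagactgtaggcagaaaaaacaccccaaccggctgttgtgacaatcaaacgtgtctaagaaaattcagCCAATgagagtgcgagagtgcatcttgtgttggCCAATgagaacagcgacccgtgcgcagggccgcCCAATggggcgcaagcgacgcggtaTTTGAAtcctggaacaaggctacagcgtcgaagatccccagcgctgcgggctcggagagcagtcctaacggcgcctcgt
PLK1 promoter: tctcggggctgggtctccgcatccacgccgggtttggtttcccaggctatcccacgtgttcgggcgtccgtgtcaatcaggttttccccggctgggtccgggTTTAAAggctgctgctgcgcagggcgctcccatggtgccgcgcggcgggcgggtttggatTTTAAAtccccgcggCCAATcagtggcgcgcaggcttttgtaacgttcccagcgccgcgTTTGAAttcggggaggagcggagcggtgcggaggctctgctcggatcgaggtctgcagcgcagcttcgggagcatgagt
CDC20 promoter: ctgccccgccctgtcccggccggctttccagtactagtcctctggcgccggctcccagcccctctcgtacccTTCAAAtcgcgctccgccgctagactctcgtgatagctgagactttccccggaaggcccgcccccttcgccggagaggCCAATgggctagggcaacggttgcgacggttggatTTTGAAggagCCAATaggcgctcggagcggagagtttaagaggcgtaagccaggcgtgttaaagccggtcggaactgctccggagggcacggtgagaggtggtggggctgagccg
CDC25B promoter: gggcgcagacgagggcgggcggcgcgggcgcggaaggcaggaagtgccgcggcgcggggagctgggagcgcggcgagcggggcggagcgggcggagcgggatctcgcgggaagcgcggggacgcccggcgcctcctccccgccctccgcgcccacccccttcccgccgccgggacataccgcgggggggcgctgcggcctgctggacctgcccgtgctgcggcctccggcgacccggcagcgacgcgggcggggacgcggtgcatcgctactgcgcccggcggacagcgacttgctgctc
In these windows the CHR-like letters nearest the start begin 41 bases before the start in KIF20A, 30 in CCNB1, and 29 in CCNB2 and PLK1. MKI67 has them at 47 and at 29 bases before the start, and there the second runs into an ATTGG. CDC20 has TTTGAA at 178 bases before the start, read from the other strand, and at 65 bases, just outside the near range, and the CDC25B window, the one with the lowest coordinates of the 4 listed for that gene, holds none of the letters searched. Among its other windows a TTTGAA or TTTAAA, outside the near range, and a CCAAT do occur, so CDC25B is counted among the 36 and the 33 members above.

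The summed level of the 46 genes set the extracts apart at the high dose. It was 43.1% of the vehicle mean with Coptidis, 64.9% with Bupleuri and 78.3% with Yijung, and 58.0% in the single Banhasasim library. It was 111% with Zizyphi and 108% with Citri, 94.0% with Cimicifugae and 91.0% with Aconiti. Per library the sum was 2204 and 2254 CPM at the high Coptidis dose, against 4981 and 4989 CPM at the low dose. High Bupleuri libraries lay between 3303 and 3396 CPM, against 4684 to 4956 CPM at the low dose. None of these high-dose libraries overlapped its low-dose fellows or the vehicle libraries, which lay between 5123 and 5269.9 CPM. These sums weigh abundant genes most and are given without a test.

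**Figure D1:**
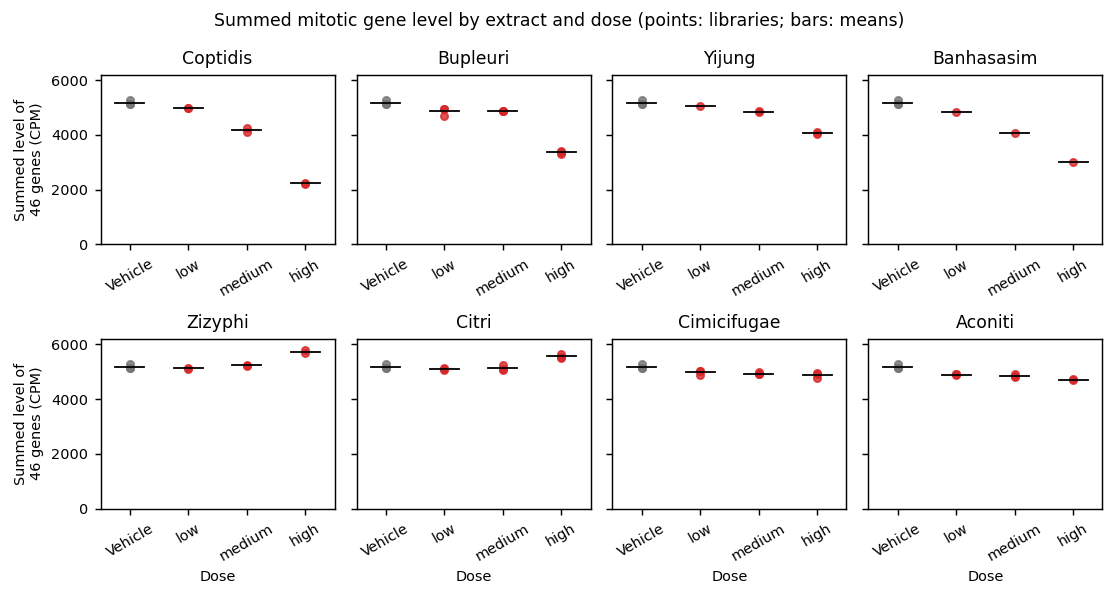
Summed level of the 46 mitotic genes (CPM, linear axis from 0) in each library by dose, from vehicle to high dose, with 1 panel for each extract; points are libraries and bars are means. The high dose lies well below the lower doses with Coptidis, Bupleuri, Yijung and Banhasasim, above them with Zizyphi and Citri, and close to them with Cimicifugae and Aconiti.

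With Coptidis, 44 of the 46 genes were lower at the high dose than at the low dose (edgeR quasi-likelihood, adjusted p under 0.05 over all genes tested), 1 was higher and 1 did not pass. The median log2 fold change of the 46 was -1.46, against -0.024 over all genes tested. This is a comparison with wide change, in which 65.6% of all genes were called, 32.4% as lower and 33.2% as higher. Every high-dose library lay below every low-dose one in 45 members, as it did in 41.8% of all genes. By role, 5 of 6 genes of the cyclin and CDK1 switch, both spindle kinases AURKA and PLK1, all 3 chromosomal passenger genes, 4 of 5 checkpoint genes, all 6 kinetochore genes, all 9 spindle genes, all 7 cytokinesis genes and all 5 genes of anaphase and mitotic exit fell. Median changes by role ran between -1.62 in the kinases and the passenger genes and -0.95 in the exit genes, with the chromosome genes MKI67 and TOP2A at -2.15 and the transcription factor FOXM1 at -0.15.

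KIF20A, the kinesin MKLP2 that works at the central spindle in cytokinesis, fell most. It had 11.4 and 12.8 CPM at the high Coptidis dose, against 99.8 and 99.6 CPM at the low dose, a log2 fold change of -3.04 ± 0.062 (SE; edgeR adjusted p = 5.25e-36). The high-dose libraries lay far below every other library used, 8.22-fold below the low dose. ASPM, which organises spindle poles, had 17.4 and 16.8 CPM at the high dose, against 126 and 129 CPM at the low dose, a log2 fold change of -2.89 ± 0.13 (SE; edgeR adjusted p = 1.3e-23). NDC80, which attaches kinetochores to microtubules, had 4.12 and 5.76 CPM against 33.7 and 35.9 CPM at the low dose, a log2 fold change of -2.82 ± 0.097 (SE; edgeR adjusted p = 1.33e-27). In both genes the groups were far apart. MKI67, which codes for the proliferation marker Ki-67 on mitotic chromosomes, had 39.7 and 45.3 CPM at the high dose, against 288 and 287 CPM at the low dose, a log2 fold change of -2.75 ± 0.14 (SE; edgeR adjusted p = 1.06e-21).

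Among the genes that drive entry into mitosis, cyclin A2 had a larger fold change than the B cyclins, a difference that was not tested. CCNA2 had 13.2 and 13.1 CPM at the high Coptidis dose, against 67.2 and 68.4 CPM at the low dose, a log2 fold change of -2.36 ± 0.061 (SE; edgeR adjusted p = 2.61e-32). CCNB1, cyclin B1, had 56.9 and 56.8 CPM, against 148 and 154 CPM at the low dose, a log2 fold change of -1.41 ± 0.059 (SE; edgeR adjusted p = 1.4e-24). CDK1, their kinase partner, had 19.7 and 20.6 CPM, against 67.2 and 73.3 CPM at the low dose, a log2 fold change of -1.80 ± 0.081 (SE; edgeR adjusted p = 2.53e-23). No high-dose library came near a low-dose one in any of these. The phosphatases that activate CDK1 parted. CDC25C fell, with 4.89 and 4.83 CPM against 15.7 and 13.6 CPM and a log2 fold change of -1.58 ± 0.093 (SE; edgeR adjusted p = 2.2e-19). CDC25B was the 1 member that rose, with 259 and 258 CPM against 231 and 229 CPM at the low dose and a log2 fold change of 0.18 ± 0.048 (SE; edgeR adjusted p = 0.00145). FOXM1, the transcription factor that many of the other members depend on in late G2, had 149 and 152 CPM, against 172 and 162 CPM at the low dose, a log2 fold change of -0.15 ± 0.051 (SE; edgeR adjusted p = 0.0112). That small fall no longer passed when replicate 2 of the high dose or of the low dose was left out (edgeR adjusted p = 0.0641 and 0.128).

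The mitotic kinases and the checkpoint also differed among themselves. AURKA, the centrosome and spindle kinase, had 18.4 and 19.2 CPM at the high Coptidis dose, against 94.1 and 94.0 CPM at the low dose, a log2 fold change of -2.32 ± 0.054 (SE; edgeR adjusted p = 8.5e-34). PLK1, polo-like kinase, had 57.6 and 55.8 CPM, against 111 and 106 CPM, a log2 fold change of -0.93 ± 0.057 (SE; edgeR adjusted p = 9.53e-19). So AURKA changed 4.99-fold and PLK1 1.90-fold. BUB1, a checkpoint kinase, had 25.1 and 27.1 CPM, against 57.4 and 55.5 CPM at the low dose, a log2 fold change of -1.11 ± 0.061 (SE; edgeR adjusted p = 2.17e-20). Its partner BUB3 had 131 and 127 CPM, against 135 and 132 CPM at the low dose, and its difference of -0.044 ± 0.044 did not pass (edgeR adjusted p = 0.393). BUB3 also has roles outside mitosis, and its high-dose libraries lay just below its low-dose ones. BIRC5, or survivin, of the chromosomal passenger complex, had 50.1 and 51.8 CPM, against 116 and 122 CPM at the low dose, a log2 fold change of -1.22 ± 0.061 (SE; edgeR adjusted p = 9.27e-22).

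The genes of anaphase and exit were uneven. CDC20, which activates the APC/C, had 147 and 142 CPM at the high Coptidis dose, against 188 and 185 CPM at the low dose, a log2 fold change of -0.36 ± 0.047 (SE; edgeR adjusted p = 5.99e-09). UBE2C, the ubiquitin-conjugating enzyme that serves the APC/C, had 38.1 and 42.5 CPM, against 63.8 and 61.2 CPM, a log2 fold change of -0.63 ± 0.078 (SE; edgeR adjusted p = 1.83e-09). Both fell far less than the median member, and so did ECT2, the RhoA exchange factor that sets up the cleavage furrow, at -0.23 ± 0.057 (edgeR adjusted p = 0.000343). TOP2A, the topoisomerase that untangles sister chromatids, had 163 and 154 CPM, against 460.2 and 466 CPM at the low dose, a log2 fold change of -1.54 ± 0.045 (SE; edgeR adjusted p = 2.43e-30). CENPF, a kinetochore protein, had 76.4 and 71.0 CPM, against 229.8 and 248 CPM, a log2 fold change of -1.69 ± 0.085 (SE; edgeR adjusted p = 1.06e-21). In both genes the groups were well separated. ESPL1, or separase, which cuts cohesin, fell by far more than CDC20, with 4.99 and 5.65 CPM, against 29.5 and 27.4 CPM at the low dose and a log2 fold change of -2.41 ± 0.092 (SE; edgeR adjusted p = 5.75e-26).

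**Figure D2:**
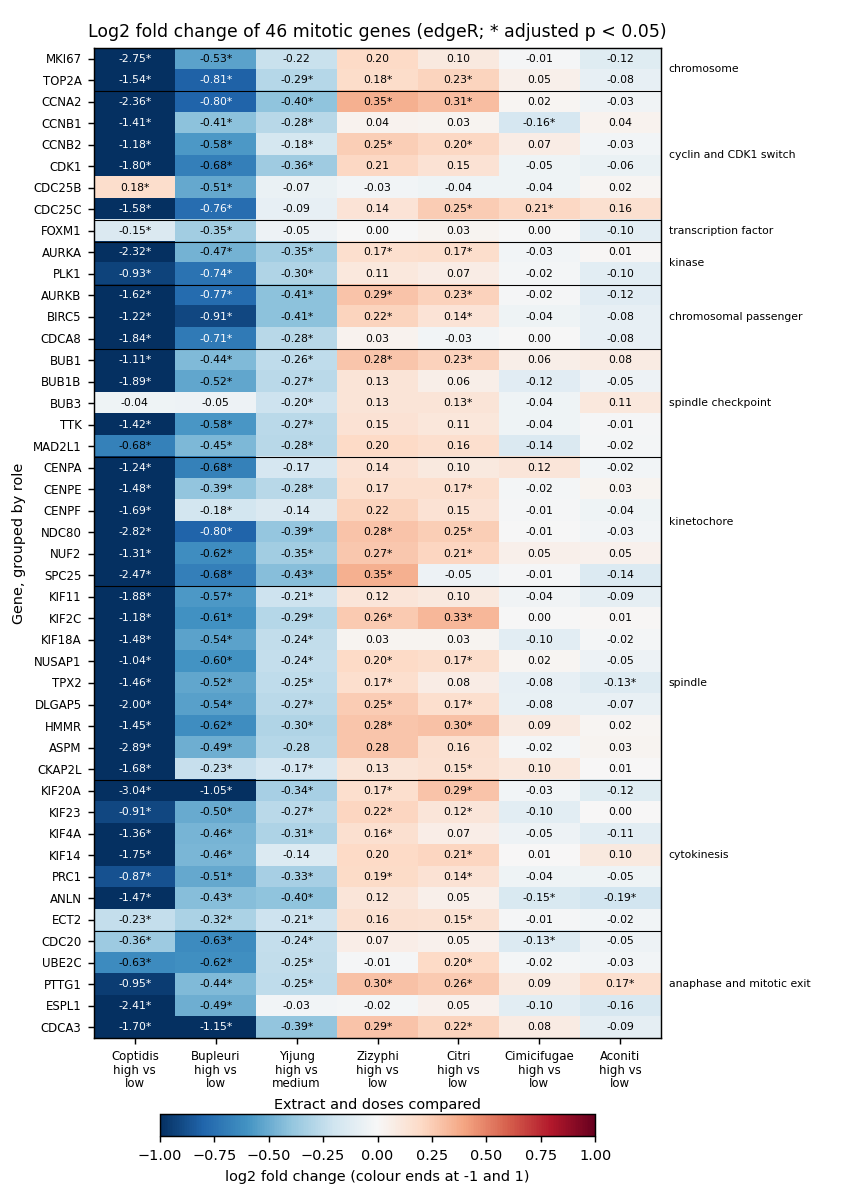
Log2 fold change of each of the 46 genes (rows, grouped by role) in the 7 extracts tested (columns), high against low dose, or high against medium for Yijung; numbers are the values, an asterisk marks an edgeR adjusted p under 0.05, and the colour ends at -1 and 1. Coptidis, Bupleuri and Yijung are almost all below 0, Zizyphi and Citri almost all above, and CDC25B is the one member above 0 with Coptidis.

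Coptidis was also the one extract with calls at the medium dose of 2.8 µg/mL against its low dose: 35 members were lower, none was higher and 11 did not pass, with a median of -0.24 (13.6% of all genes were called, 5.89% as lower). No member was called between medium and low dose of the other 5 extracts so compared, where edgeR called 0.00566% of all genes with Zizyphi and with Citri, 0.385% with Cimicifugae, 0.368% with Bupleuri and 0.0509% with Aconiti. MKI67 had 197 and 195 CPM at the medium dose, against 288 and 287 CPM at the low dose, a log2 fold change of -0.54 ± 0.12 (SE; edgeR adjusted p = 0.00108). CDCA3, linked to degradation of the CDK1 inhibitor WEE1, had 17.1 and 19.8 CPM, against 26.5 and 26.3 CPM, a log2 fold change of -0.51 ± 0.076 (SE; edgeR adjusted p = 1.59e-06). The medium libraries of both genes lay between those of the low and high doses. CCNB1 had 150.3 and 139 CPM at the medium dose, against 148 and 154 CPM at the low dose, and did not pass (-0.059 ± 0.055, edgeR adjusted p = 0.563). The number called was 22 without replicate 3 of the medium dose. Mitochondrial genes took more of the medium libraries than of the low ones (13.4 to 13.5% against 6.46 to 7.25%), and the part of this in the result was not tested.

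With Bupleuri, 45 of the 46 genes were lower at 210 µg/mL than at 8.4 µg/mL and BUB3 did not pass. The median was -0.54, against -0.0025 over all genes, and 39.2% of all genes were called, 18.6% as lower. Every high-dose library lay below every low-dose one in 43 members, as in 21.5% of all genes. CDCA3 fell most, with 13.5, 14.6 and 14.2 CPM at the high dose, against 31.3, 31.8 and 30.9 CPM at the low dose, a log2 fold change of -1.15 ± 0.062 (SE; edgeR adjusted p = 7.72e-20). KIF20A had 46.4, 48.4 and 45.3 CPM, against 101, 94.5 and 95.1 CPM at the low dose, a log2 fold change of -1.05 ± 0.041 (SE; edgeR adjusted p = 8.07e-25). BIRC5 had 67.0, 74.7 and 68.5 CPM, against 131, 129.7 and 135 CPM, a log2 fold change of -0.91 ± 0.047 (SE; edgeR adjusted p = 1.78e-20). In all 3 genes every high-dose library lay below every low-dose one. The medium dose of 42 µg/mL stayed with the low dose, as KIF20A shows with 96.2, 96.1 and 99.3 CPM.

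Among the cyclins and kinases, CCNA2 had 38.4, 40.8 and 37.5 CPM at the high Bupleuri dose, against 68.2, 68.8 and 67.0 CPM at the low dose, a log2 fold change of -0.80 ± 0.041 (SE; edgeR adjusted p = 9.18e-21). CCNB1 had 108, 113 and 119 CPM, against 148, 145 and 159 CPM, a log2 fold change of -0.41 ± 0.045 (SE; edgeR adjusted p = 2.97e-10). PLK1 had 72.9, 72.4 and 71.0 CPM, against 121, 119.8 and 120.0 CPM, a log2 fold change of -0.74 ± 0.044 (SE; edgeR adjusted p = 2.29e-18). The order of cyclin A2 before cyclin B1 was thus as with Coptidis, while PLK1 stood higher in the ranking of falls, at place 9 of 46 against 37. CDC20 had 128, 138 and 139.9 CPM, against 210.5, 202 and 217 CPM at the low dose, a log2 fold change of -0.63 ± 0.038 (SE; edgeR adjusted p = 2.64e-18). CDC25B had 177, 179 and 168 CPM, against 246, 244 and 258 CPM, a log2 fold change of -0.51 ± 0.040 (SE; edgeR adjusted p = 1.11e-14). FOXM1 had 138, 136 and 136 CPM, against 182, 173 and 167 CPM, a log2 fold change of -0.35 ± 0.042 (SE; edgeR adjusted p = 2.61e-09). These 3 genes, which fell little or rose with Coptidis, were lower in every high Bupleuri library. The other members named by rule fell as well, at -0.81 in TOP2A, -0.68 in CDK1, -0.62 in UBE2C, -0.47 in AURKA, -0.44 in BUB1 and -0.23 in the spindle gene CKAP2L (log2 fold changes, largest edgeR adjusted p = 5.87e-05).

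A single low-dose library set the size of several changes with Bupleuri. This library, replicate 3, also stood apart from its fellows over all genes. The chi-square per gene, a measure of how far the counts of a pair of libraries differ, was 11.0 against replicate 1. Against replicate 2 it was 16.1, the largest of the 45 replicate pairs, and between replicates 1 and 2 it was 3.27. MKI67 had 161, 158 and 162 CPM at the high dose, against 256, 287 and 156 CPM at the low dose, so replicate 3 of the low dose lay below the high ones. Its log2 fold change of -0.53 ± 0.10 (SE; edgeR adjusted p = 2.22e-05) became -0.76 without that library and -0.36 without replicate 2 of the low dose. CENPF had 170.4, 169 and 184 CPM, against 212, 222 and 162 CPM, and ASPM 77.1, 74.9 and 78.6 CPM, against 121, 125 and 79.0 CPM. The same library was the lowest of its group in both. CENPF, at -0.18 ± 0.065 (edgeR adjusted p = 0.022), reached -0.31 without that library and lost its call without any 1 of 4 other libraries (edgeR adjusted p from 0.0735 to 0.271).

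**Figure D3:**
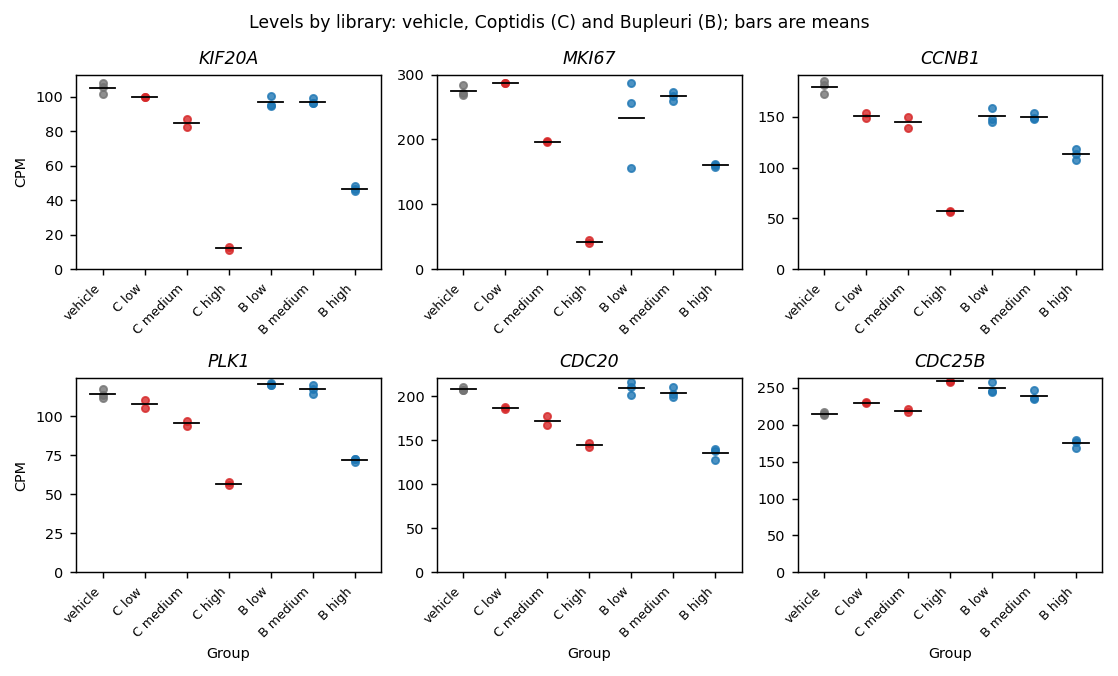
Levels (CPM, linear axes from 0) of KIF20A, MKI67, CCNB1, PLK1, CDC20 and CDC25B in each library of vehicle, Coptidis (C) and Bupleuri (B) at low, medium and high dose; points are libraries and bars are means. Of these genes KIF20A and MKI67 drop most at the high Coptidis dose, CDC20 and CDC25B are lowest at the high Bupleuri dose, and 1 low Bupleuri library is low in MKI67.

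All 44 genes that fell with Coptidis were among the 45 that fell with Bupleuri (100.0% and 97.8% of the lists). With nearly all of the 46 members on both lists, this overlap follows almost wholly from their lengths. The share of all genes lower with both extracts is not given. The sizes of the changes differed. Whether the change from low to high dose differed between the extracts was tested as a difference of differences, a comparison added after the values had been seen. It was lower in Coptidis for 39 members and higher for 3, and 4 did not pass (median -0.84; 55.4% of all genes were called, 28% as lower and 27.4% as higher). The doses are not matched in mass, and the extracts are in different library sets. AURKA differed by -1.84 ± 0.066, MKI67 by -2.22 ± 0.17 and ASPM by -2.40 ± 0.16 (edgeR adjusted p of 3.51e-26, 3.62e-15 and 2.09e-17). The 3 genes that went the other way were CDC25B at 0.69 ± 0.063, CDC20 at 0.27 ± 0.060 and FOXM1 at 0.20 ± 0.066 (edgeR adjusted p of 7.61e-13, 0.000172 and 0.00928). UBE2C, BUB3, ECT2 and MAD2L1, the checkpoint protein MAD2, did not pass. Over the 46 genes the changes with the 2 extracts had a Pearson r of 0.372 and a Spearman rho of 0.294, given as a description, since genes of 1 library are not independent replicates.

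**Figure D4:**
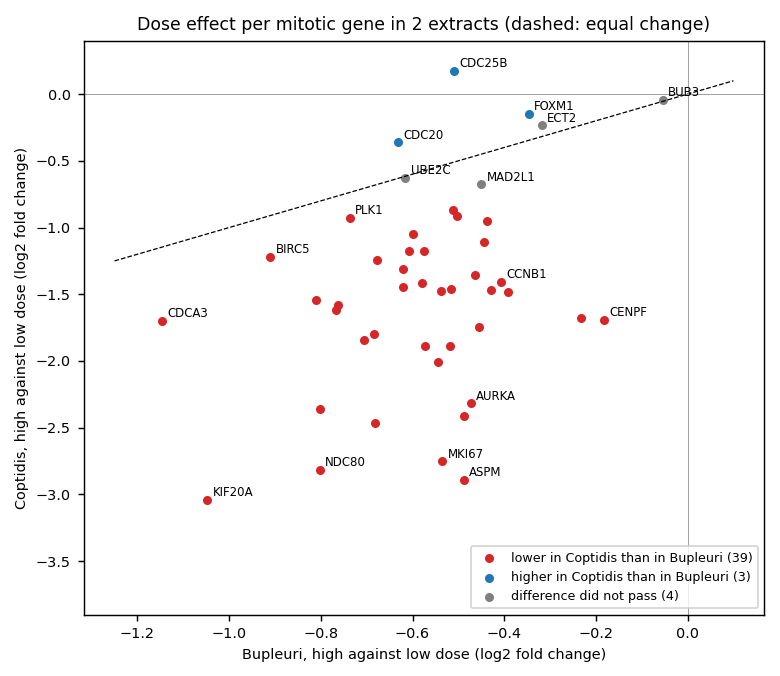
Log2 fold change of each of the 46 genes at high against low dose of Coptidis (vertical) and Bupleuri (horizontal); the dashed line marks equal change and colours give the test of the difference between the extracts. Most genes lie below the line. CDC25B, CDC20 and FOXM1 lie above it and passed the test. ECT2 lies above it without passing, and BUB3 lies close to the line, also without passing.

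Yijung-tang was compared at high against medium dose, since its low dose keeps 1 library. Here 37 members were lower, none was higher and 9 did not pass, with a median of -0.27 (9.16% of all genes were called, 5.05% as lower). The largest falls were in SPC25, a partner of NDC80, with 7.20 and 6.98 CPM at the high dose, against 9.40 and 9.62 CPM at the medium dose, a log2 fold change of -0.43 ± 0.11 (SE; edgeR adjusted p = 0.00664). BIRC5 had 90.2 and 99.8 CPM, against 122 and 130.2 CPM, a log2 fold change of -0.41 ± 0.057 (SE; edgeR adjusted p = 1.06e-06). Its partner AURKB, the kinase of the passenger complex, had 29.8 and 31.5 CPM, against 38.7 and 42.8 CPM, a log2 fold change of -0.41 ± 0.075 (SE; edgeR adjusted p = 0.00014). All high-dose libraries of these genes lay below the medium ones. All 5 checkpoint genes fell, and BUB3 was among them, at -0.20 ± 0.044 (edgeR adjusted p = 0.00125). The smallest falls called were CCNB2 at -0.18 and CKAP2L at -0.17 (edgeR adjusted p of 0.0274 and 0.0463). The 9 that did not pass were MKI67, CDC25B, CDC25C, FOXM1, CENPA, CENPF, ASPM, KIF14 and ESPL1, all with values below 0. Leaving out 1 library gave between 27 and 33 calls; UBE2C and CKAP2L lost theirs without any 1 of the 4 libraries (edgeR adjusted p from 0.0575 to 0.194 and from 0.0763 to 0.334), CCNB2 without any 1 of 3 (0.0674 to 0.275) and SPC25 without either library of replicate 2 (0.0804 and 0.0525). Of the 37, 36 were also lower with Coptidis and with Bupleuri (97.3% of the Yijung list in both cases, 81.8% and 80.0% of the other lists). Since nearly all members fell with Coptidis and with Bupleuri, a large overlap follows from the lengths of the lists. The share of all genes lower in each pair of extracts is not given.

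Banhasasim-tang has 1 library at each dose and no test. At the high dose 45 of 46 members lay below every vehicle library and 0 above (38.9% and 41.1% of all genes), and 31 were more than 1.5-fold below the vehicle mean, as were 9.19% of all genes. KIF20A had 96.9, 74.0 and 40.4 CPM at the low, medium and high dose, and MKI67 had 252, 178 and 88.4 CPM. Both levels were in descending order with dose. At the medium dose 43 members were below every vehicle library and 1 above (33.8% and 36.5% of all genes), and 4 were past 1.5-fold below (1.43% of all genes). At the low dose 32 were below and 6 above (30.1% and 32.1% of all genes), and 0 were past 1.5-fold below (0.628% of all genes). BUB3 lay near vehicle, at 125 CPM in the high library, against 137, 134 and 133 CPM in vehicle.

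With Zizyphi, 21 members were higher at the high dose than at the low dose, none was lower and 25 did not pass (median 0.18; 7.4% of all genes were called, 3.12% as higher). SPC25 had 9.17 and 9.64 CPM at the high dose, against 7.38 and 7.30 CPM at the low dose, a log2 fold change of 0.35 ± 0.11 (SE; edgeR adjusted p = 0.0377). CCNA2 had 83.3 and 88.3 CPM, against 68.1 and 66.1 CPM, a log2 fold change of 0.35 ± 0.047 (SE; edgeR adjusted p = 2.37e-06). PTTG1, or securin, which holds back separase, had 145 and 145 CPM, against 122 and 113 CPM, a log2 fold change of 0.30 ± 0.063 (SE; edgeR adjusted p = 0.00146). The groups did not overlap in these genes. BUB1, TOP2A, AURKA, BIRC5 and KIF20A rose too, at 0.28, 0.18, 0.17, 0.22 and 0.17 (largest edgeR adjusted p = 0.0214), and the smallest change called was 0.16 in KIF4A, a chromokinesin. MKI67, CCNB1, CDK1, PLK1, CDC20, CENPF, FOXM1, UBE2C and BUB3 did not pass, with log2 fold changes from -0.0082 in UBE2C to 0.22 in CENPF, and neither did ANLN, ASPM, BUB1B, CDC25B, CDC25C, CDCA8, CENPA, CENPE, CKAP2L, ECT2, ESPL1, KIF11, KIF14, KIF18A, MAD2L1 and TTK. The calls rest on few libraries. Leaving out 1 of the 4 gave between 11 and 19, the fewest without replicate 3 of the high dose, and 13 without either low one. SPC25, KIF20A and KIF4A lost their calls without any 1 of the 4, PTTG1 without replicate 3 of the low dose (edgeR adjusted p = 0.0699), and TOP2A, AURKA and BIRC5 each without either of 2 libraries (0.0912 to 0.203).

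Citri gave a like picture, with 25 members higher, none lower and 21 not passing (median 0.15; 13.8% of all genes were called, 6.44% as higher). KIF2C, the microtubule-depolymerising kinesin MCAK, had 84.7, 86.7 and 83.6 CPM at the high dose, against 66.0, 67.8 and 68.6 CPM at the low dose, a log2 fold change of 0.33 ± 0.043 (SE; edgeR adjusted p = 1.67e-07). CCNA2 had 86.9, 84.5 and 88.7 CPM, against 69.9, 69.7 and 71.0 CPM, a log2 fold change of 0.31 ± 0.038 (SE; edgeR adjusted p = 1.02e-07). HMMR, a spindle assembly factor also known as RHAMM, had 111, 118 and 109 CPM, against 90.4, 93.8 and 90.4 CPM, a log2 fold change of 0.30 ± 0.040 (SE; edgeR adjusted p = 5.46e-07). Every high-dose library lay above every low-dose one in these genes. The smallest changes called were BUB3 at 0.13 and the cytokinesis kinesin KIF23 at 0.12 (edgeR adjusted p of 0.00835 and 0.0409). MKI67, CCNB1, CDK1, PLK1, CDC20, CENPF and FOXM1 did not pass, with log2 fold changes from 0.025 in FOXM1 to 0.15 in CENPF, and neither did ANLN, ASPM, BUB1B, CDC25B, CDCA8, CENPA, ESPL1, KIF11, KIF18A, KIF4A, MAD2L1, SPC25, TPX2 and TTK. The rise of BIRC5 (0.14) lost its call without any 1 of the 6 libraries (edgeR adjusted p from 0.0635 to 0.141), that of KIF23 without any 1 of 3 (0.125 to 0.306) and that of UBE2C (0.20) without either of 2 (0.0752 and 0.132). Of the risers, 18 were shared by Zizyphi and Citri (85.7% and 72.0% of the lists; 1.78% of all genes were called as higher in both), and over all 46 genes the 2 sets of changes had a Pearson r of 0.605 and a Spearman rho of 0.637. Those 18 genes were also all lower with Coptidis, Bupleuri and Yijung, a pattern held by 0.181% of all genes, and they come from every role but that of the transcription factor: AURKA, AURKB, BIRC5, BUB1, CCNA2, CCNB2, CDCA3, DLGAP5, HMMR, KIF20A, KIF23, KIF2C, NDC80, NUF2, NUSAP1, PRC1, PTTG1 and TOP2A.

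Few members were called with the remaining herbs. Cimicifugae had 3 lower and 1 higher of 46 (10.7% of all genes were called, 5.81% as lower and 4.88% as higher), with a median of -0.017. CCNB1 had 139, 128 and 135 CPM at the high dose, against 153, 154 and 144 CPM at the low dose, a log2 fold change of -0.16 ± 0.045 (SE; edgeR adjusted p = 0.0111). ANLN, the contractile ring scaffold anillin, and CDC20 were lower, with log2 fold changes of -0.15 and -0.13, while CDC25C was higher at 0.21 (edgeR adjusted p of 0.00378, 0.015 and 0.0128). The Aconiti comparison had ANLN and TPX2, which activates AURKA, lower, at -0.19 and -0.13, and PTTG1 higher, at 0.17 (edgeR adjusted p of 0.000979, 0.00874 and 0.0475; 9.53% of all genes were called, 5.25% as lower and 4.28% as higher). All the other 42 and 43 members did not pass. With Cimicifugae, CCNB1 and CDC20 lost their calls without any 1 of 3 libraries (edgeR adjusted p from 0.0554 to 0.101 and from 0.0501 to 0.0943) and CDC25C without either of 2 (0.0582 and 0.0707). With Aconiti, PTTG1 lost its call without any 1 of 5 libraries (edgeR adjusted p from 0.074 to 0.303) and TPX2 without either high one (0.0686 and 0.0883). In both comparisons the share of members called was no larger than that of all genes.

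Within a library set, the dose effects of 2 extracts were compared directly. Coptidis differed from Zizyphi in 45 members, 44 of them lower in Coptidis and 1 higher (median -1.61; 55.3% of all genes were called, 27.2% as lower and 28.1% as higher). Bupleuri differed from Aconiti in 45 members, all lower in Bupleuri (median -0.53; 23.4% of all genes, 10.5% as lower), and CENPF did not pass. Cimicifugae differed from Citri in 8 members, all lower in Cimicifugae (median -0.17; 1.07% of all genes, 0.322% as lower): KIF2C, KIF20A, CCNA2, DLGAP5, KIF23, AURKA, ANLN and TPX2. KIF2C gave -0.34 ± 0.061 and KIF20A -0.32 ± 0.055 (edgeR adjusted p of 0.000724 and 0.000433). That count was as low as 3 when 1 library was left out. With the divergent libraries in, the counts were 39 between Coptidis and Zizyphi, 13 between Bupleuri and Aconiti and 0 between Cimicifugae and Citri.

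Set against vehicle, most members were lower at the high dose of Coptidis, Bupleuri and Yijung, and Cimicifugae and Aconiti had more members called than against their own low dose. Coptidis had 43 members lower, as were 32.6% of all genes, and 1 higher, as were 34%, with FOXM1 and BUB3 not passing. Bupleuri had all 46 lower (19.4% of all genes), and Yijung had 39 lower (16.7%). Zizyphi had 23 higher (9.64% of all genes) and CCNB1 lower (12%), and Citri had 21 higher (14.3%) and CCNB1 lower (17.1%). Cimicifugae had 19 lower (19.2%) and 6 higher (16.5%), and Aconiti had 20 lower (15%) and 3 higher (12.7%). At the medium dose of Coptidis 41 members were lower than in vehicle (12.3% of all genes). These comparisons share the same 3 vehicle libraries. Some members already differed from vehicle at the low doses, in a direction repeated from extract to extract. CCNB1 was lower at the low dose of all 6 extracts tested, by log2 fold changes from -0.31 to -0.21, and so was DLGAP5, the spindle protein HURP, from -0.29 to -0.16. AURKB and CDCA3 were higher in 5 of 6, from 0.18 to 0.32 and from 0.21 to 0.34. CCNB1 had 153, 144 and 143 CPM at the low Aconiti dose, against 185, 173 and 182 CPM in vehicle, and the groups did not overlap. Vehicle libraries bear no set number, so set and treatment cannot be told apart in these differences, and the part of the set was not tested. Members called at a low dose numbered 5 in Coptidis, 9 in Zizyphi, 14 in Citri, 14 in Cimicifugae, 22 in Bupleuri and 23 in Aconiti, while 7.32, 11.8, 16.1, 20.8, 26.9 and 20% of all genes were called.

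Over the 54 libraries of the fit, most members kept close company. The Pearson correlation of a member's log2 CPM with the mean of the other members was highest in TPX2 (0.987) and CCNA2 (0.986) and lowest in CDC25B (0.202), BUB3 (0.279), FOXM1 (0.676), ECT2 (0.704) and CDC20 (0.799). The libraries share treatments and sets, so these values only describe. The non-members most like the members were SPDL1 (0.986), CKAP2 (0.979), PBK (0.976), CDK2 (0.975) and RACGAP1 (0.974). Members with a TTTGAA or TTTAAA near the start had a median log2 fold change of -1.58 with Coptidis (29 genes, -3.04 to -0.87), against -1.30 in the 10 without (-2.36 to 0.18). CDC20, CDC25B, ECT2 and MAD2L1 are among those 10, and so is CCNA2, which fell 5.13-fold. With Bupleuri the medians of the same classes were -0.57 and -0.48. The near range was set after the positions had been seen, CDC20 lies just outside it, and the classes were not compared by a test.

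Other cell cycle genes were read from lists outside the members. Of 40 other G2/M genes, 38 were lower and 1 was higher with Coptidis at the high against the low dose, and 39 were lower with Bupleuri, with medians of -1.33 and -0.45. With Yijung 27 were lower, while 12 were higher with Zizyphi, and 13 were higher and 1 lower with Citri. Of all genes, 32.4% were lower and 33.2% higher with Coptidis, 18.6% were lower with Bupleuri and 5.05% with Yijung. With Zizyphi 3.12% of all genes were higher and 4.28% lower, and with Citri 6.44% were higher and 7.34% lower. Of 25 genes of G1/S and DNA replication, 21 were lower and 1 higher with Coptidis (median -1.19), 23 were lower with Bupleuri (median -0.34) and 10 with Yijung, but with Zizyphi 1 rose and 1 fell, and with Citri 1 rose and 2 fell. The replication counts with Zizyphi and Citri were thus near the shares of all genes. At the medium Coptidis dose all 25 replication genes were lower than at the low dose, with a median of -0.41, against -0.24 in the mitotic genes. In that comparison 5.89% of all genes were lower. UHRF1, which keeps DNA methylation in place at replication, had 10.9 and 12.1 CPM at the high Coptidis dose, against 77.5 and 81.8 CPM at the low dose, a log2 fold change of -2.79 ± 0.059 (SE; edgeR adjusted p = 1.69e-35). KNL1, the kinetochore scaffold, had 11.3 and 11.4 CPM, against 62.4 and 63.2 CPM, a log2 fold change of -2.46 ± 0.094 (SE; edgeR adjusted p = 5.28e-26). Other large falls with Coptidis were -2.39 in FAM83D, a spindle protein, -2.37 in the kinesin KIF18B, -2.74 in cyclin E2 (CCNE2) and -2.57 in the replication factor MCM10 (log2 fold changes, largest edgeR adjusted p = 1.29e-23). With Bupleuri the largest were -0.84 in RRM2, a ribonucleotide reductase subunit, -0.76 in KIF18B, -0.74 in FAM83D, -0.73 in PSRC1, -0.73 in thymidine kinase (TK1) and -0.67 in thymidylate synthase (TYMS), with a largest edgeR adjusted p of 4.7e-13.

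Genes whose products serve beyond mitosis are read against all genes, of which 32.4% were lower and 33.2% higher with Coptidis, and 18.6% were lower and 20.6% higher with Bupleuri. Of 16 APC/C genes, 2 were lower and 5 higher with Coptidis, and 5 were lower and 2 higher with Bupleuri. Of 16 cohesin and condensin genes, 11 were lower and 4 higher with Coptidis (median -0.35), and 8 were lower and 3 higher with Bupleuri. Of 15 genes of DREAM, MuvB and B-MYB, 7 were lower and 7 higher with Coptidis, and 3 and 3 with Bupleuri. The APC/C genes called with Coptidis were thus a smaller share than the 65.6% of all genes called, and the DREAM, MuvB and B-MYB genes called with Bupleuri a share near the 39.2% of all genes called. The largest changes with Coptidis were -0.69 in the APC/C subunit ANAPC7, -1.87 in the condensin subunit NCAPH, and 1.47 in E2F5, 1.40 in LIN37 and -1.26 in TFDP1 of DREAM (largest edgeR adjusted p = 1.29e-13). With Bupleuri they were -0.36 in UBE2S, -0.65 in NCAPD2 and -0.65 in MYBL2, which codes for B-MYB (largest edgeR adjusted p = 0.00214). Among the 10 tested CDK inhibitors and G2 brakes, 6 were higher and 3 lower with Coptidis, and 2 higher and 5 lower with Bupleuri. CDKN1A, the CDK inhibitor p21, had 50.3 and 52.4 CPM at the high Coptidis dose, against 20.8 and 22.1 CPM at the low dose, a log2 fold change of 1.26 ± 0.070 (SE; edgeR adjusted p = 3.47e-20). Its level was 40.0, 38.6 and 38.0 CPM at the high Bupleuri dose, against 24.3, 24.8 and 26.3 CPM at the low dose, a log2 fold change of 0.63 ± 0.056 (SE; edgeR adjusted p = 7.37e-13). It also rose with Yijung, Citri, Cimicifugae and Aconiti, by 0.41, 0.17, 0.32 and 0.39 (edgeR adjusted p of 4.37e-05, 0.0491, 7.02e-05 and 1.36e-05), and with Zizyphi its difference of 0.071 did not pass (0.646). GADD45A, a stress gene that restrains CDK1, had 246 and 255 CPM at the high Coptidis dose, against 44.8 and 39.6 CPM at the low dose, a log2 fold change of 2.57 ± 0.077 (SE; edgeR adjusted p = 7.99e-30). CDKN2C, the inhibitor p18, went the other way, with 9.52 and 10.9 CPM, against 102 and 96.2 CPM and a log2 fold change of -3.28 ± 0.090 (SE; edgeR adjusted p = 3.77e-31). With Bupleuri it gave -1.27, next to -0.66 in CDKN2D, the inhibitor p19 (edgeR adjusted p of 1.56e-22 and 4.7e-07).

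**Figure D5:**
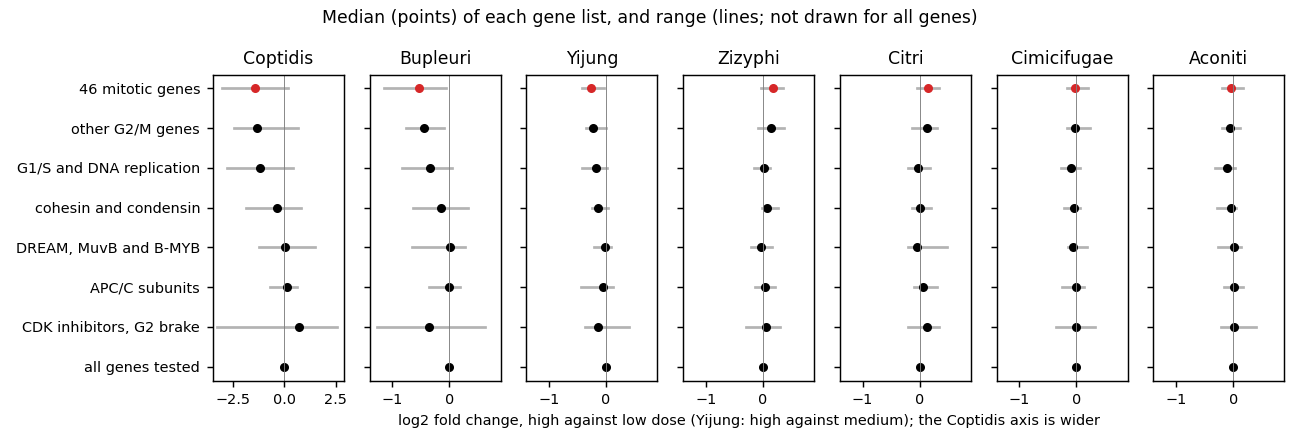
Median (points) and range (lines) of the log2 fold change in each gene list at high against low dose (high against medium for Yijung), with 1 panel for each extract; for all genes tested only the median is drawn, and the Coptidis axis is wider. The mitotic genes and the other G2/M genes share a side of 0 in each panel, and the replication genes stay near 0 with Zizyphi and Citri.

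Summed levels of cell type markers also differed between these doses. The 7 astrocyte markers summed to 4.84 to 6.97 CPM at the high Coptidis dose, against 40.4 to 41.6 CPM at the low dose, nearly all of it SLC1A3 and ALDOC. With Bupleuri they summed to 26.4 to 28.4 CPM at the high dose, against 38.7 to 43.2 CPM at the low dose. The 3 glioma and mesenchymal line markers summed to 10261 to 10303 CPM at the high Coptidis dose, against 7269 to 7482 CPM at the low dose, and to 6449.9 to 6637 CPM against 7214 to 7535 CPM with Bupleuri. With Coptidis the 3 parted. VIM had 7908 and 7931 CPM at the high dose, against 4719 and 4529 CPM at the low dose, while CD44 had 2394 and 2329 CPM, against 2753 and 2728 CPM, and NES 1.37 and 1.21 CPM, against 9.61 and 11.5 CPM. Thus 1 of the 3 was higher and 2 were lower at the high dose. The 5 microglia and leukocyte markers, almost all of it CD68, summed to 268 to 280.3 CPM at the high Coptidis dose, against 184 to 188 CPM at the low dose, with AIF1 and CX3CR1 under 1 CPM in every library used. The others went the other way, with PTPRC at 4.38 and 3.07 CPM, against 12.0 and 12.1 CPM at the low dose, and CSF1R at 1.73 and 2.96 CPM, against 3.75 and 4.39 CPM. The 4 epithelium markers, mostly KRT18, summed to 60.1 to 63.6 CPM at the high Bupleuri dose, against 230.2 to 254 CPM at the low dose, with EPCAM and CDH1 under 1 CPM in every library used. The 5 neuron markers summed to 107 to 112 CPM at the high Coptidis dose, against 149 to 151 CPM at the low dose, with RBFOX3 and STMN2 under 1 CPM in every library used. TUBB3 had 35.2 and 33.4 CPM at the high Coptidis dose, against 90.1 and 88.0 CPM at the low dose, and SNAP25 had 5.14 and 4.23 CPM, against 30.4 and 30.2 CPM. SYT1 was higher, with 71.7 and 68.7 CPM, against 30.2 and 30.4 CPM. The part of these shifts in the changes of the mitotic genes was not tested.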

How the data were processed

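RNA was sequenced with 100 bp reads from 60 libraries of SW1783 cells. The authors deposited expected counts per gene (RSEM), and the submitters' processing notes list RSEM 1.3.3, the aligner STAR 2.7.3a, Trim Galore 0.6.5 for trimming and FastQC 0.11.9. The sources used here give neither annotation nor strand setting, so overlapping and antisense genes cannot be told apart. The expected counts were rounded (9.18% of values were not whole), and edgeR 4.0.16 in R 4.3.3 was run with its filter at a minimum count of 10, TMM scaling and the quasi-likelihood test over 54 libraries in 21 groups, with Benjamini-Hochberg adjustment over 17680 genes within each of 37 comparisons. CPM values use the same scaling over all 60 libraries. SE is the log2 fold change divided by the root of F. Groups left with 1 library have no test. DESeq2 1.42.0, other scaling, no filter, a replicate block, the sets compared alone, the 2 divergent libraries kept, and each library left out were tried. The code was tested on simulated data. The members, lists and tests were chosen with earlier results of these data known. Named by rule were 15 fixed members and, at high against lower dose, the 3 largest and 2 smallest changes called, members not passing and members against the median, plus the 3 largest changes in other lists and CDKN1A.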

Additional observations from a re-analysis of the deposited data

Results flagged for a closer look

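In 4 comparisons the dose effect of 1 extract differed from that of another by a test of the difference itself (edgeR quasi-likelihood, adjusted p under 0.05 over all genes). Coptidis differed from Zizyphi in 45 of the 46 mitotic genes (44 lower and 1 higher; 55.3% of all genes were called), with a median difference in log2 fold change of -1.61. Bupleuri differed from Aconiti in 45, all lower (23.4% of all genes), with a median of -0.53. Coptidis differed from Bupleuri in 42 (39 lower and 3 higher; 55.4% of all genes), with a median of -0.84, in a comparison chosen after the values had been seen. Cimicifugae differed from Citri in 8, all lower (1.07% of all genes), with a median of -0.17.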

How the results depend on the processing

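Calls of the mitotic genes depended most on the 2 divergent libraries. With them kept, calls at the high dose against vehicle numbered 1 in Zizyphi, 2 in Citri, 1 in Cimicifugae and 5 in Yijung. At the medium dose against vehicle they numbered 4 in Coptidis, 1 in Cimicifugae and 0 in Zizyphi, Citri, Bupleuri, Aconiti and Yijung, and at the low dose against vehicle 0 in all 6 extracts. High against low dose gave 0 in Zizyphi, 1 in Citri and 0 in Cimicifugae, high against medium Yijung 0, and medium against low Coptidis 3. Cimicifugae against Citri gave 0 and Bupleuri against Aconiti 13. The other 13 counts stayed within 1.5 times their value, among them Coptidis at high against low dose. Bupleuri at high against low dose is counted with these, but its number of calls fell right to that limit. Shares of all genes called are not given for these fits.

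Without the filter on low counts, 3 members were called for low Coptidis against vehicle, 1 for medium against low Zizyphi and 2 for medium against low Bupleuri. Medium against low Cimicifugae gave 1 call with DESeq2 size factors, with the replicate block and with DESeq2. Cimicifugae against Citri gave 14 by DESeq2 and 3 with only the library sets compared. The share of all genes called is not given for these settings, and the cause of these moves was not tested. Same-numbered libraries did not deviate together beyond 0.1 in every pair, so the numbers were not taken to pair them, although in the Citri and Cimicifugae set 8 of 45 same-numbered pairs passed 0.1 (median r 0.053) and 0 of 90 others did. The replicate block left the other 36 counts within 1.5 times.

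Leaving out 1 library gave 15 to 22 calls for high Zizyphi, 15 to 24 for high Aconiti, 4 to 10 for medium Zizyphi, 5 to 12 for medium Citri, 14 to 20 for medium Bupleuri, 6 to 16 for medium Yijung, 0 to 5 for low Coptidis, 1 to 9 for low Zizyphi, 8 to 13 for low Citri and 7 to 18 for low Cimicifugae, all against vehicle. It gave 11 to 19 for high against low Zizyphi, 2 to 5 for Cimicifugae and 1 to 2 for Aconiti, 22 to 30 for medium against low Coptidis, 0 to 2 for medium against low Bupleuri, and 3 to 8 for Cimicifugae against Citri. For fits with 1 library left out, here and above, the share of all genes called is not given. A loss of calls over all genes therefore cannot be told apart.

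Signs that turned belonged to small log2 fold changes. Over single libraries left out, high against low Zizyphi ran from -0.013 to 0.22 in PLK1 (lowest without high replicate 2), from -0.024 to 0.10 in CCNB1 (lowest without high replicate 3), from -0.068 to 0.061 in FOXM1 and from -0.053 to 0.039 in UBE2C (both above 0 without high replicate 3, FOXM1 also without low replicate 3 at 0.021, UBE2C also without low replicate 2 at 0.014). MKI67 with Cimicifugae ran from -0.068 to 0.054 against the low dose (above 0 without low replicate 2 or high replicate 3, at 0.044) and from -0.083 to 0.028 against vehicle (above 0 without high replicate 3 or vehicle replicate 1, at 0.0066). With the divergent libraries, MKI67 gave 0.0081 at high against low Aconiti and CDC20 gave 0.16 at high Aconiti against vehicle.

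On simulated data for 17313 genes, changes of 1.2-fold were recovered in 36% of cases for Coptidis, 44% for Zizyphi and 54% for Bupleuri at high against low dose. Changes of 1.5-fold were recovered in 92%, 90% and 98%. False calls made up 3.39%, 6.3% and 5.63% of the simulated calls. Only 50 genes were changed at each size, whereas 65.6%, 7.4% and 39.2% of all genes were called in the real comparisons. The adjustment of p depends on how many genes change, so these rates do not carry over to the real tests. Small changes that did not pass may still be missed at this depth and number of libraries.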
